A study of Mus musculus with 98 samples.

Results

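MedFb1a is the name given by the authors' deposited annotation to a group of fibroblasts of the mouse thymus, and its members were all cells carrying that label in the age series. They were 1920 of 36208 labelled cells, spread over 8 libraries. The age series held nonepithelial thymic stroma (NETS) of wild-type mice, sorted as live Ter119-CD45-EpCAM- cells, so red cells, leukocytes and epithelium were gated out, and profiled as single cells by droplet RNA sequencing of transcript 3′ ends. It covered the embryonic days E12.5 (1 library), E13.5 (1 library) and E16.5 (2 libraries), the day of birth (P0, 2 libraries) and 4 weeks of age (W4, 2 libraries); the thymi of the E12.5 and E13.5 mice were pooled over litters. The same label had been transferred to 314 of 21451 Ter119-CD45- cells from newborn mice doubly heterozygous for Tbx1 (a LacZ allele) and Crkl (a germline null), written Tbx1+/- Crkl+/- (Het, 3 libraries), or their wild-type littermates (WT, 3 libraries), cells that had been fixed before capture. Bulk RNA of gp38+CD26- stroma at P0 and at 4 weeks and of gp38+CD26+ stroma at P0 (6 libraries each, wild-type mice) gave a readout in which no cell labels were used.

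Medullary fibroblasts are mesenchymal cells of the inner thymus, where thymocytes complete selection, whereas capsular fibroblasts lie at the surface and along the septa. Fibroblasts of lymphoid organs build the collagen and basement membrane scaffold, and respond to tumour necrosis factor family ligands through NF-kB, a transcription factor family that switches on chemokines and adhesion molecules. Sele, the first of the 3 marker genes of the label, encodes E-selectin, an NF-kB target best known from activated endothelium, where it slows passing leukocytes. The other markers are Tenm4, a teneurin that acts in cell adhesion, and Col15a1, a collagen of basement membranes.

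The median MedFb1a cell held between 11929 and 17123 unique molecular identifiers (UMIs, counted transcript molecules) in the 8 libraries. Of these cells, 19 MedFb1a cells had a barcode that also occurred in another library. The 2 E16.5 libraries were the closest pair, with a chi-square of 1.69 per degree of freedom over genes, against 3.004 for P0 and 2.51 for W4. In MedFb1a cells the summed level of 7 neural crest genes was 398 CPM at E12.5 (UMI counts scaled to a common library total), with Foxd3 at 131.7 CPM and Sox10 at 46.5 CPM, and it lay between 19.3 and 61.6 CPM in the other libraries. Each of the 7 was detected at E12.5 and E13.5, and 3 to 5 of 7 were at 0 in each later library. Endothelial genes summed to 20.4 to 150.6 CPM against 6921 CPM in arterial endothelium (EnA), mesothelial genes to 0.688 to 9.13 CPM, thymic epithelial genes to 26.4 to 55.3 CPM, hematopoietic genes to 8.71 to 125.2 CPM, pericyte genes to 488 to 1644 CPM and vascular smooth muscle genes to 319 to 873 CPM. Erythroid genes reached 5062 CPM in W4 replicate 2 and 775 CPM in E16.5 replicate 1, against 2.90 to 226 CPM elsewhere.

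The share of stroma labelled MedFb1a was highest at E13.5 and lowest at W4. It was 3.56% at E12.5 (71 of 1997 cells, 95% Wilson interval 2.83 to 4.46%), 12.1% at E13.5 (682 of 5620 cells, 11.3 to 12.98%), 5.36% and 5.04% at E16.5, 3.24% and 4.29% at P0, and 2.38% and 2.08% at W4. At E13.5 the label ranked 3 of 19 in size. MedFb1b, the other label of the first medullary class, had a higher mean at each age than at the one before, from 0.851% at E12.5 and 3.02% at E13.5 to 6.93% ± 0.0315 at E16.5, 8.55% ± 1.30 at P0 and 9.95% ± 0.314 at W4 (SD, n = 2 at each), while MedFb1a stood at 5.20% ± 0.224, 3.76% ± 0.741 and 2.23% ± 0.210 at the same ages. MedFb1a exceeded MedFb1b in both embryonic libraries before E16.5 and fell below it in all 6 later libraries. The intervals cover counting error only, and a share also moves when other cells grow in number.

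**Figure D1:**
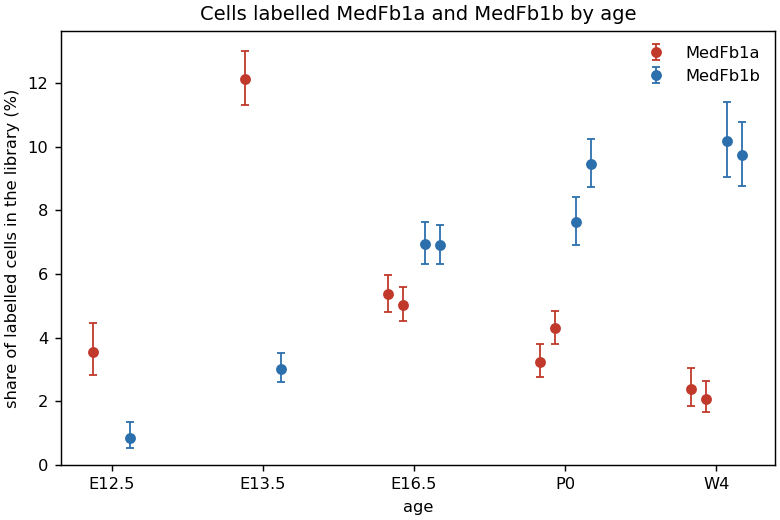
Share of all labelled cells in each library (%, vertical axis) carrying the label MedFb1a (red) or MedFb1b (blue) at each age, 1 point per library, with bars for the 95% Wilson interval. MedFb1a peaked at 12.1% at E13.5 and was 2.08 to 2.38% at W4, where MedFb1b was 9.73 to 10.2%.

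Across the 5 ages the MedFb1a share differed beyond the spread between libraries (edgeR quasi-likelihood test on cell counts, adjusted p = 0.00211), as did the shares of 89.5% of the 19 labels, 17 in number, so a change with age set no label apart. Step by step, the log2 change was -0.34 (SE 0.21) from the mean of E12.5 and E13.5 to E16.5 with an adjusted p of 0.165 in edgeR, -0.46 (SE 0.21) to P0 with 0.155, and -0.76 (SE 0.21) to W4 with 0.0449. Only the last step passed 0.05. The 2 earliest libraries are 1 per age and far apart, and the first step averages them.

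The share of MedFb1a cells with a UMI of Mki67 or Top2a, genes of dividing cells, was 25.4% at E12.5 and 40.2% at E13.5, 20.4% and 25.9% at E16.5, 23.7% and 10.6% at P0, and 11.5% and 11.8% at W4. After each cell was thinned to 2000 UMIs the shares were 1.43, 7.48, 4.53, 4.82, 4.61, 2.04, 0 and 4.41% in the same order. Proliferating stroma had a label of its own (Pr). In both counts the E13.5 library was the highest.

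Sele and Col15a1 were far higher from E16.5 to P0 than at E13.5, the age of the label's highest share. Sele was at 0 CPM at E12.5, 17.5 CPM at E13.5, 270.3 and 285 CPM at E16.5, 500.4 and 554 CPM at P0, and 39.8 and 102 CPM at W4. The 4 libraries of E16.5 and P0 stood above all others. Col15a1 was at 0 CPM at E12.5, 5.64 CPM at E13.5, 314 and 341 CPM at E16.5, 851 and 789 CPM at P0, and 1812 and 1935 CPM at W4, so each age lay above the one before it without overlap. Tenm4 was at 40.7 and 28.5 CPM in the E12.5 and E13.5 libraries, and between 69.6 and 106.6 CPM in the 6 later ones. The label is therefore used below as a name only, since at E12.5 and E13.5 the given markers were at or near 0 apart from Tenm4.

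Among the 19 labels MedFb1a had the highest mean Sele level, 221 ± 218 CPM (SD over 8 libraries), followed by MedFb2a at 147 CPM, MedFb2b at 138.7 CPM, CapFb1b at 128 CPM and EnVL at 90.6 CPM. These means are closer to each other than the spread of MedFb1a over the ages. For Tenm4 it came after 1 label, at 76.8 CPM after MedFb1b at 99.4 CPM, and for Col15a1 after 2, at 756 CPM after MedFb1b at 1086 CPM and MedFb2b at 805 CPM. The means run over the libraries with at least 20 cells of a label, 8 for MedFb1a with E12.5 among them, 7 for MedFb1b and 6 for MedFb2b, so the order also rests on unequal sets of ages. These rankings describe values that went into the labels, and no test was made of them. A UMI of Sele was present in 43.4% of MedFb1a cells, in 29.6% of MedFb1b cells and in 2.56% of vascular smooth muscle cells, which should lack it, and in 22.3%, 10.9% and 0.529% after thinning to 2000 UMIs. Of the 14 genes of a medullary fibroblast list, the sum was lower in MedFb1a than in MedFb1b in 7 of 7 libraries with at least 20 cells of each label, and MedFb1a ranked 4 of 19 for it. That sum was 889 and 912 CPM at E12.5 and E13.5, and 9876 and 10177 CPM at W4.

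**Figure D2:**
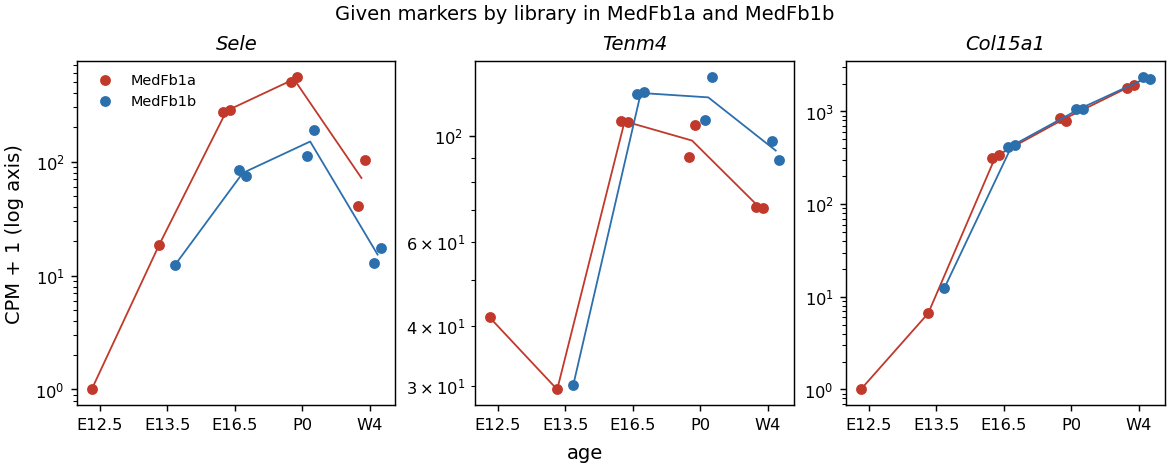
Level of Sele, Tenm4 and Col15a1 (CPM + 1, log axis, 1 panel per gene) in MedFb1a (red) and MedFb1b (blue) cells summed per library, by age, with lines through the age means. Sele stood higher in MedFb1a in 7 of 7 libraries, whereas Tenm4 and Col15a1 stood lower in 7 of 7.

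Within MedFb1a, the edgeR test across all 12351 genes placed the rise of Sele from the early libraries to E16.5 at a log2 change of 8.53 (SE 0.44, adjusted p = 1.04e-11), or 4.12 without the E12.5 library, in which it was at 0, and its fall from P0 to W4 at -2.97 (SE 0.21, adjusted p = 3.35e-09). Its step from E16.5 to P0, 0.81 (SE 0.17, adjusted p = 0.00308 in edgeR), kept its size but not its call with DESeq2 (0.82, adjusted p = 0.448) and without either E16.5 library (0.78 and 0.84, adjusted p = 0.0815 and 0.0568). Col15a1 rose at every step, by 9.58 (SE 0.22; 5.98 without the E12.5 library, also at 0), 1.20 (SE 0.09) and 1.10 (SE 0.09) on the log2 scale. Tenm4 rose by 1.93 (SE 0.13) into E16.5 and fell by 0.58 (SE 0.14) from P0 to W4, a fall with an adjusted p of 0.00403 in edgeR and 0.0679 in DESeq2.

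Set beside MedFb1b in the same library, MedFb1a carried more transcripts of chemokines and early response genes. Of 3436 genes with a mean of at least 50 CPM in either label, 251 (7.31%) were higher in MedFb1a in all 7 libraries compared and 434 (12.6%) were lower in all 7. MedFb1b had only 17 cells at E12.5, so that library is not compared. The labels were drawn from these same counts, so both numbers are a description. The 10 genes with the largest median ratio were Cxcl2, Cxcl10, F830016B08Rik, Irf1, Atf3, Cxcl1, Ier3, Ccl2, Maff and Nfkbiz, with median log2 ratios from 1.92 to 2.93. Among them are chemokines (Cxcl1 and Cxcl2, which draw neutrophils, Cxcl10, which draws activated T cells, and Ccl2, which draws monocytes), transcription factors induced by stress or interferon (Atf3, Maff and Irf1), and Nfkbiz and Ier3, which act in or downstream of NF-kB signalling. F830016B08Rik is a gene named by its clone identifier. Other labels stood as high or higher for some of these genes: mean Cxcl10 was 1789 CPM in MedFb2b and 478 CPM in MedFb2a beside 427 CPM in MedFb1a, and for Fos MedFb1a ranked 7 of 19 and MedFb1b 19.

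The sequences upstream of 2 of these chemokine genes are shown because both carry the kappaB motif, GGG and TTTCC with 2 free bases between them, searched on both strands of the 250 bases before the annotated start in RefSeq (GRCm38.p6). Capitals mark the matches. The Cxcl2 window is chr5:90903649-90903898 and the Cxcl1 window chr5:90890995-90891244, both on the plus strand.

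Cxcl2: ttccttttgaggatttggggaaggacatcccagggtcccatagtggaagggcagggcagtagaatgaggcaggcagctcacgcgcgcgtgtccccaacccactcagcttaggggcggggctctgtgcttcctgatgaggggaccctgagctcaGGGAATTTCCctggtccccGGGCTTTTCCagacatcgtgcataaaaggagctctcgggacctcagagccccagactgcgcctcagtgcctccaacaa

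Cxcl1: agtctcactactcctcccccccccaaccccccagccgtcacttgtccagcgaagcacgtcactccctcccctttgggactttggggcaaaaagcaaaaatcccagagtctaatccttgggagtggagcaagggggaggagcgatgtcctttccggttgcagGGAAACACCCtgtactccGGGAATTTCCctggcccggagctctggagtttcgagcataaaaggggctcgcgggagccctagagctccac

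In Cxcl2 the matches lie 97 and 78 bases before the start, and in Cxcl1 89 and 71 bases, the first of the latter on the other strand. The motif was in 2 of the 7 genes of the 10 that had a promoter entry (28.6%) and in 447 of 27025 genes overall (1.65%). A match says only that these letters are present, and binding was not measured.

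Of these genes, Cxcl10 stood in MedFb1a at 0 CPM at E12.5, 9.61 CPM at E13.5, 731 and 691 CPM at E16.5, 1004 and 790 CPM at P0, and 147 and 41.96 CPM at W4. In MedFb1b it was at 2.08 CPM at E13.5, 82.03 and 68.5 CPM at E16.5, 154 and 126.8 CPM at P0, and 30.9 and 28.2 CPM at W4. The means over the 7 shared libraries were 488 ± 409 CPM and 70.4 ± 55.4 CPM (SD), and the wide SDs come from the ages. Atf3, a stress-induced repressor and activator of the ATF family, was at 100.7 CPM at E12.5, 535 CPM at E13.5, 582 and 614 CPM at E16.5, 778 and 580 CPM at P0, and 222 and 235 CPM at W4. MedFb1b held 190 CPM of Atf3 at E13.5, 127.1 to 178 CPM at E16.5 and P0, and 11.1 and 13.6 CPM at W4, so that the 2 labels did not overlap within any age and its log2 ratio was largest at W4 (4.20 and 4.01). For Irf1, a factor induced by interferon-gamma, the ratio ran the other way, from 2.16 to 2.36 at E16.5 and P0 to 0.60 and 0.46 at W4.

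**Figure D3:**
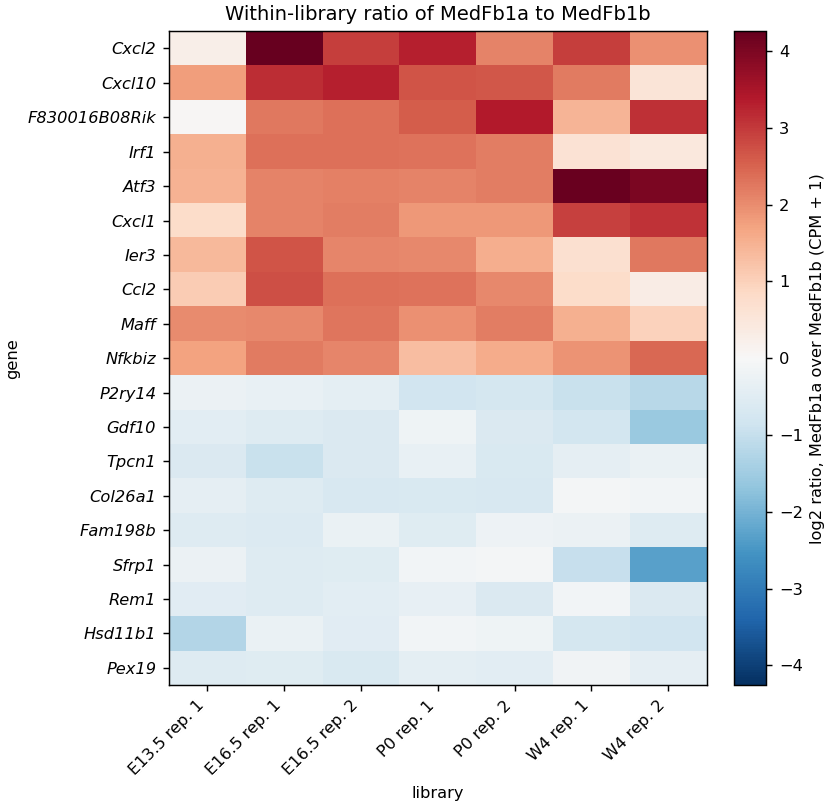
Log2 ratio of MedFb1a to MedFb1b (colour, levels in CPM + 1) for genes among the 10 highest and the 10 lowest by median ratio (rows) in the 7 libraries that held both labels (columns). Red is higher in MedFb1a. Atf3 was reddest at W4 and the ratios of the lower genes were small, with medians from -0.76 to -0.46.

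The genes lower in MedFb1a had small median ratios, although single libraries went further, with Sfrp1 at -2.33 and Gdf10 at -1.58 in W4 replicate 2 and Hsd11b1 at -1.26 at E13.5. P2ry14, a receptor for UDP-glucose, led with a median log2 ratio of -0.76, followed by Gdf10, a growth factor of the bone morphogenetic protein family, at -0.62 and the lysosomal channel gene Tpcn1 at -0.61. Col26a1, a gene of the medullary list, was at -0.55. Fam198b, Sfrp1 (a Wnt inhibitor), Rem1, Hsd11b1 (which regenerates active glucocorticoid) and Pex19 (peroxisome assembly) lay between -0.52 and -0.46.

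Against all 19 labels, MedFb1a had the highest mean for 111 of 6399 genes with at least 20 CPM (1.73%). Among the 10 with the largest margin over the second label were Sele, Gem, Hspa1b, Hspa1a, Ddit3, Aacs, Hspe1, Hsph1 and Stk40. Their margins were small, from 1.502 times for Sele to 1.16 times for Stk40. Hspa1a, Hspa1b, Hspe1 and Hsph1 encode heat shock chaperones, Ddit3 the CHOP factor of the unfolded protein response, and Gem a small GTPase. How reads were split between the twin genes Hspa1a and Hspa1b is uncertain. Hspa1a was at 104 CPM at E12.5, 486 CPM at E13.5, 813 and 731 CPM at E16.5, 313 and 267 CPM at P0, and 3471 and 3367 CPM at W4. The W4 libraries stood above all others, and heat shock and immediate early genes are also known to be switched on while tissue is digested into single cells, a part that was not tested. The study's methods also give digests of adult thymus an added step, depletion of CD45+ cells with magnetic beads before staining. Age and this handling therefore cannot be told apart in any step from P0 to W4.

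The upstream windows of Hspa1a and Hspe1 are shown because they hold the heat shock element core GAANNTTC, in capitals, searched in the same way. The Hspa1a window is chr17:34972157-34972406 on the minus strand, with the match 104 bases before the start, and the Hspe1 window chr1:55087898-55088147 on the plus strand, with the match 84 bases before it.

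Hspa1a: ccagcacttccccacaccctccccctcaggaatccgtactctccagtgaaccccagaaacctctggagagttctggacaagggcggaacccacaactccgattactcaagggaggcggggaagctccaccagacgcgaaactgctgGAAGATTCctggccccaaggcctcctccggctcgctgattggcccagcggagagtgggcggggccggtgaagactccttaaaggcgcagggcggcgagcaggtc

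Hspe1: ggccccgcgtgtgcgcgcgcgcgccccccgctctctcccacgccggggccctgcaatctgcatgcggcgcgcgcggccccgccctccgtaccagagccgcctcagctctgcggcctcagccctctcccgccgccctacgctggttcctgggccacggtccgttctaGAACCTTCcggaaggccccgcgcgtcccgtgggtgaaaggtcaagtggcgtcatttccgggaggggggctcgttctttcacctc

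The core occurred in Hspa1a, Hspa1b and Hspe1, 3 of the 8 genes of the 10 with an entry (37.5%), and in 2088 of 27025 genes overall (7.73%). The windows of the twin genes Hspa1a and Hspa1b are nearly the same sequence, with the match 104 bases before the start in both. Of the genes lower in MedFb1a than in MedFb1b, 1 of 4 with an entry, P2ry14, also held the core (25%).

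A list of 12 immediate early and heat shock genes was higher in MedFb1a than in MedFb1b in 7 of 7 libraries. Its summed level was 5824 CPM at E12.5, 8630 CPM at E13.5, 17993 and 18099 CPM at E16.5, 23293 and 18084 CPM at P0, and 18701 and 16430 CPM at W4. In MedFb1b it was 4138 CPM at E13.5, 7610 and 8207 CPM at E16.5, 12351 and 10280 CPM at P0, and 5392 and 4202 CPM at W4. MedFb1a had the highest sum of all labels in 2 libraries, and CapFb1c had the highest mean, 17471 CPM. The sum of a list of 13 chemokines was also higher than in MedFb1b in 7 of 7 libraries, but barely so at E13.5 (378 against 376 CPM). MedFb1a ranked 3 of 19 for the mean of that sum, and CapFb1c was highest at 4193 CPM. The chemokine list holds Cxcl1, Cxcl10 and Ccl2, and the other list Hspa1a, genes named above for their levels beside other labels. The labels came from the same counts, so both sums are a description and add no separate support.

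The genotype libraries of newborn mice, in which the labels were transferred to other cells, gave the same measure in libraries that had not chosen these genes. In the 5 libraries with at least 20 cells of MedFb1a, each of the 10 higher genes was higher than in MedFb1b in 5 of 5, as was Sele at 1208 ± 316 CPM against 320 ± 123.8 CPM. The other given markers, Tenm4 and Col15a1, were lower than in MedFb1b in 5 of 5, with median log2 ratios of -0.69 and -0.27. Cxcl2 had a median log2 ratio of 3.57 there and Atf3 one of 2.15. Of the 251 genes, 54.6% were higher in every library, against 8.39% of all 4149 genes at 50 CPM. Of the 434 lower genes, 67 (15.4%) were lower in every library, against 8.34% of all. Among the lower genes named above, Fam198b and Pex19 were lower in 5 of 5 libraries, and Col26a1 and Hsd11b1 in 4. P2ry14, Gdf10 and Tpcn1 were lower in 3 of 5, Sfrp1 in 2 and Rem1 in 1. Hspa1a and Hspa1b were higher in only 2 of 5 libraries, and Gem and Ddit3 in 5 of 5. The transfer of labels used expression, so this carry-over is not independent of it.

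With age the MedFb1a transcriptome changed at each step, and by the number of genes most into E16.5. Of 12351 genes tested, 7861 (63.6%) differed over the 5 ages at an adjusted p under 0.05 (edgeR). From the mean of the E12.5 and E13.5 libraries to E16.5, 2977 genes rose (24.1%) and 2275 fell (18.4%), 42.5% together. From E16.5 to P0, 819 rose (6.63%) and 777 fell (6.29%), 12.9% together, and from P0 to W4, 1774 rose (14.4%) and 1873 fell (15.2%), 29.5% together. The step from E16.5 to P0 gave 528 or 556 genes without either E16.5 library and 658 with both summed, in place of 1596, and DESeq2 called 3064, 585 and 2107 genes in the 3 steps. The median log2 change of all genes was 0.04, 0 and -0.02. Labels had been set over all ages on the same counts, so a test here describes libraries given those labels, and the E12.5 and E13.5 libraries, 1 per age, were assumed to vary like the pairs of later ages.

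Into E16.5 most genes of the immune and matrix lists rose, as did 8 of 8 pericyte genes (median log2 change 1.97), 11 of 12 capsular fibroblast genes (4.15, or 2.74 without the E12.5 library), 11 of 14 medullary fibroblast genes (2.37) and 4 of 4 erythroid genes, and the part of RNA from other cells was not tested. Of 15 interferon response and major histocompatibility complex (MHC) class I genes tested, 15 rose and 0 fell, with a median log2 change of 5.96, and their sum went from 160 CPM at E12.5 and 479 CPM at E13.5 to 3462 and 3184 CPM at E16.5. Isg15, an interferon-induced ubiquitin-like protein, rose by 5.96 (SE 0.24), and H2-D1, an MHC class I chain, by 5.19 (SE 0.27) on the log2 scale. Of 12 chemokines 9 rose and 1, Cxcl12, which holds progenitors in lymphoid niches, fell by 3.101 (SE 0.13), from 591 CPM at E12.5 and 228 CPM at E13.5 to 34.2 and 35.8 CPM at E16.5. Of the genes that rose, had at least 50 CPM and did not overlap, Cxcl10 had a fitted log2 change of 10.32 (SE 0.50), which was 6.34 without the E12.5 library, where it was at 0 CPM. Vtn (vitronectin), Steap4 (a metalloreductase), Col15a1, Il34 (a ligand of the macrophage growth factor receptor), Ccl7 and Agt (angiotensinogen) were also among the 8 named, and their order depends on that library, without which Vtn was at 8.53 and Steap4 at 8.17. Vtn had 2 UMIs in the early libraries against 835 at E16.5, a ratio of 434 with a counting interval of 119.8 to 3590, and Hbb-bs, a globin of red cells and another of the 8, was at 399 CPM in E16.5 replicate 1 and 56.9 CPM in replicate 2.

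Of 13 basement membrane genes 13 rose (median 1.72), among them Lama2 by 2.52 (SE 0.16) and Hspg2, perlecan, by 2.18 (SE 0.14). Of 9 small leucine-rich proteoglycans 8 rose, with Dcn, decorin, going from 20.3 and 336 CPM to 2919 and 2862 CPM. Of 11 genes of TNF receptors and NF-kB 9 rose and 1 fell. Of 12 immediate early and heat shock genes 11 rose and 1 fell, and Icam1, an integrin ligand, rose by 5.52 (SE 0.14).

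Among the 2275 genes that fell into E16.5 were genes of the neural crest and cell cycle lists. Of 6 neural crest genes 5 fell, and Foxd3 was at 131.7 and 11.2 CPM before E16.5 and at 0 in every library from then on, at least 73.4-fold lower at E16.5. Nefl, a neurofilament, was at least 222-fold lower, Pcp4 at least 107.1-fold lower and Adamts18, a metalloprotease, at least 162-fold lower, and Sfrp5, a Wnt inhibitor, at least 70.5-fold lower, all against a floor of 3 counts over the group. The call of Adamts18 was lost with DESeq2 (log2 change -10.57, adjusted p = 0.0937). Foxd3 and Pcp4 were highest in the E12.5 library of 71 cells (Pcp4 at 110.4 CPM there and 26.4 CPM at E13.5), in which the neural crest sum was also highest. The fold bounds above include that library. Without it the log2 changes were -8.27 for Foxd3, -9.51 for Pcp4, -8.62 for Sfrp5, -10.31 for Adamts18 and -11.04 for Nefl. With it they were -9.78, -10.28, -9.75, -10.73 and -10.53. The median of the neural crest list was -4.52 without that library and -6.02 with it. Why the E12.5 library stood higher was not tested. Nnat, an imprinted gene of neural and endocrine tissue, fell by 8.26 (SE 0.17), from 1576 and 496 CPM to 2.75 and 1.94 CPM, and Hmga2, a chromatin protein of embryonic growth, by 7.06 (SE 0.21), from 639 and 278 CPM to 1.15 and 3.88 CPM. Of 25 mesenchymal transcription factors 14 fell and 7 rose, beside 18.4% and 24.1% of all genes tested. Sox11 fell by 2.51 (SE 0.17), while Prrx1 rose by 1.07 (SE 0.09). Of 20 cell cycle genes 11 fell and 1 rose, with a median of -0.63, or -0.98 without the E12.5 library.

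Between E16.5 and birth the changes were smaller. C3, the central complement protein, went from 8.94 and 9.70 CPM to 60.2 and 49.1 CPM (log2 change 2.41, SE 0.16), and Has1, a hyaluronan synthase, from 11.5 and 9.27 CPM to 74.9 and 70.4 CPM (2.69, SE 0.16). Angptl4 (2.80), Tnfrsf12a, a TNF family receptor (2.56), H2-K1, an MHC class I chain (2.10, or 1.37 without P0 replicate 1), and Mmp9, a matrix metalloprotease (2.08), also rose. Col2a1, cartilage collagen, met the same rule with 367 CPM in P0 replicate 1 against 2.13 CPM in replicate 2, so 1 library made its value. Of 14 medullary fibroblast genes 10 rose and 0 fell, beside 6.63% and 6.29% of all genes tested.

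Fabp5, a fatty acid binding protein, fell by 1.90 (SE 0.10), from 580 and 513 CPM to 167.4 and 151.5 CPM. Cdkn1c, an imprinted inhibitor of cell division, fell by 1.43 (SE 0.09), and Hspa1a by 1.54 (SE 0.09). The other 5 were Emcn, Igfbp2, G0s2, Adora2b and Peg10, with log2 changes of -1.61 to -1.45. Of 20 cell cycle genes 12 fell and 0 rose, and of 15 imprinted and oncofetal growth genes 8 fell and 0 rose. Over all genes tested 6.29% fell and 6.63% rose. The rule that chose the genes named here took only those whose libraries of the 2 ages did not overlap.

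From birth to W4 most imprinted and oncofetal growth genes fell and most complement genes rose, while 15.2% of all genes tested fell and 14.4% rose. Of 15 imprinted and oncofetal growth genes 12 fell and 0 rose, with a median log2 change of -4.61, and their sum went from 12640 and 13422 CPM to 1172 and 1002 CPM. Dlk1, an imprinted Notch-like protein of immature mesenchyme, stood at 423 CPM at E12.5, 2136 CPM at E13.5, 5339 and 5372 CPM at E16.5, 2436 and 3199 CPM at P0, and 6.79 and 2.68 CPM at W4. H19 fell by 6.80 (SE 0.27) and Mest fell by 6.28 (SE 0.14). Agtr2, an angiotensin receptor, was 181 and 238 CPM at P0 and 0 in both W4 libraries, at least 154.7-fold lower, Igfbp2 at least 52.7-fold lower and Igf2, the fetal growth factor, at least 45.2-fold lower. Zim1 had 2 UMIs at W4 against 525 at P0, a ratio of 105 with a counting interval of 28.9 to 867. Col2a1 was also at 0 at W4, and its call was lost without P0 replicate 1 (adjusted p = 0.0592 in edgeR), W4 replicate 1 (0.0744) or W4 replicate 2 (0.0685).

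Of 8 complement genes 7 rose and 0 fell, with a median of 1.99, beside 14.4% and 15.2% of all genes tested. C3 went to 3518 and 4019 CPM, a log2 change of 6.03 (SE 0.12), and Serping1, the C1 inhibitor, from 165.1 and 183 CPM to 797 and 995 CPM. Cxcl14, a chemokine of resting epithelia and stroma, went from 6.17 and 3.96 CPM to 607 and 837 CPM, and Ccl19, which attracts mature thymocytes, from 1.42 and 1.22 CPM to 43.7 and 59.8 CPM. Of 12 chemokines of the list 8 rose and 3 fell. Those that fell were Cxcl10 by 3.37 (SE 0.26), Ccl2 by 1.03 (SE 0.19) and Cxcl1 by 0.86 (SE 0.14). Cxcl2, which the list does not hold, fell by 3.45 (SE 0.25). Csf2rb, a cytokine receptor chain, and Ifi205, an interferon-induced gene, rose by 6.43 (SE 0.46) and 7.01 (SE 0.40). Gsta3, a glutathione transferase, had 1 UMI at P0 against 160 at W4 (ratio 401, counting interval 70.9 to 15936), Csmd1 2 against 150 (188, 51.1 to 1566), Serpina3n 2 against 118 (147.9, 40.0 to 1235), and H2-Q6 3 at P0 (ratio 96.1, 32.1 to 473).

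Of 15 interferon and MHC class I genes 7 rose and 4 fell, so the list divided. H2-D1 rose by 3.03 (SE 0.13) and B2m, its partner chain, by 1.70 (SE 0.11), whereas Isg15 fell by 2.43 (SE 0.22). Of 12 immediate early and heat shock genes 8 fell and 3 rose. Hspa1a rose by 3.47 (SE 0.10) and Fosb fell by 1.25 (SE 0.08). Of 13 basement membrane genes 11 rose and 1 fell, of 8 pericyte genes 0 rose and 7 fell, and of 14 Wnt genes 2 rose and 6 fell. Over all genes tested 14.4% rose and 15.2% fell, so the rising Wnt genes were near the share of all genes. In W4 replicate 2 the erythroid sum was 5062 CPM against 226 CPM in replicate 1, and all 4 erythroid genes tested rose.

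**Figure D4:**
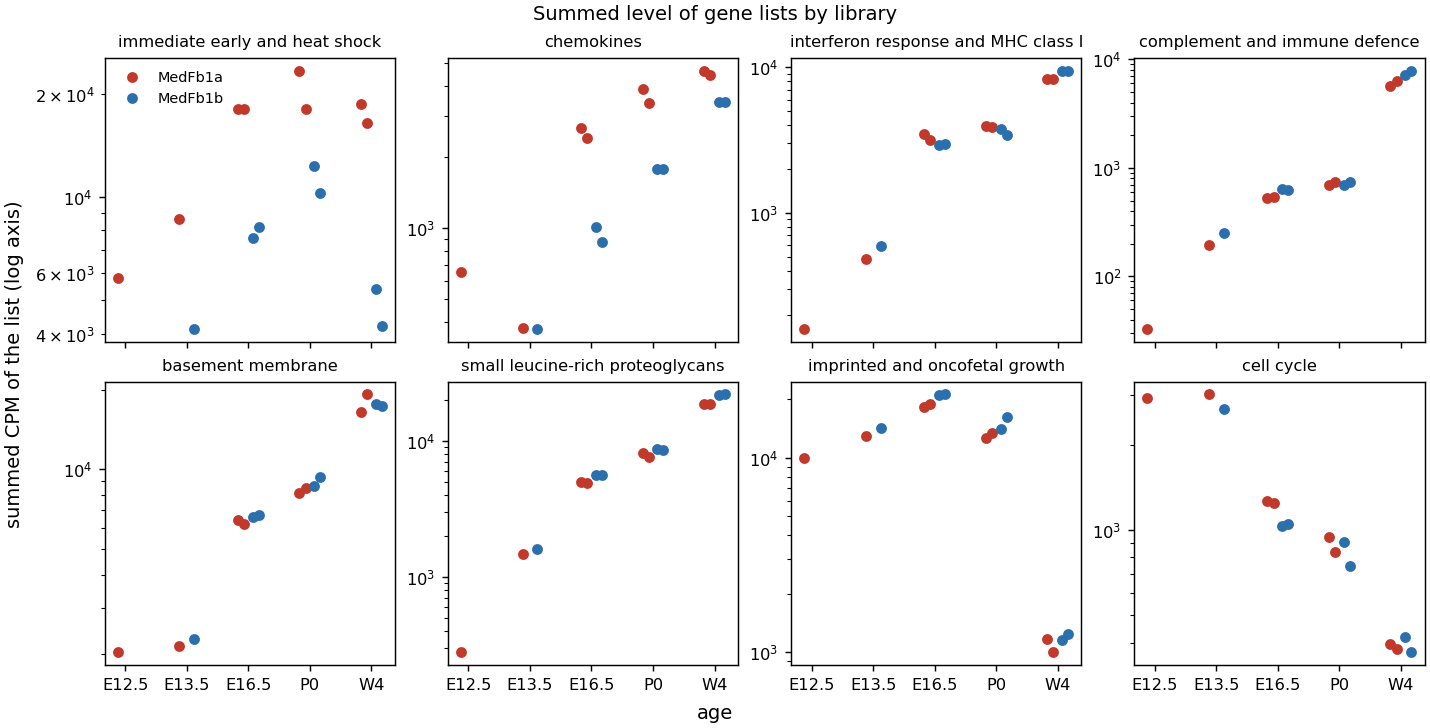
Summed level of 8 gene lists (CPM, log axis, 1 panel per list) in MedFb1a (red) and MedFb1b (blue) by age, 1 point per library. The immediate early and heat shock sum stayed between 16430 and 18701 CPM in MedFb1a at W4, where it was 4202 to 5392 CPM in MedFb1b, while the imprinted and oncofetal sum was low at W4 in both.

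The test of whether a gene changed differently with age in MedFb1a than in MedFb1b had the library as a block and covered 12225 genes. Between E16.5 and P0 it called 43 genes (0.352%), 28 more positive in MedFb1a (0.229%) and 15 more negative (0.123%). Between P0 and W4 it called 262 genes (2.14%), 91 more positive (0.744%) and 171 more negative (1.4%). The first share was 0.104% without E16.5 replicate 1 and 1.09% without W4 replicate 2, so it hung on single libraries. As before, the labels came from the same counts, and the test describes libraries given them.

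From P0 to W4 the immediate early genes, which cells switch on within minutes of a stimulus, moved apart between the labels, staying higher in MedFb1a. Of the 12 genes of the immediate early and heat shock list 11 were more positive in MedFb1a and 0 more negative, with a median log2 difference of 1.19 beside -0.03 over all genes and 0.744% of genes called in that direction. Fos was at 4922 and 3181 CPM at P0 and 3345 and 2692 CPM at W4 in MedFb1a, and at 2695 and 2042 CPM and then 738 and 460 CPM in MedFb1b, a log2 difference of 1.54 (SE 0.07, adjusted p = 1.57e-16 in edgeR). In MedFb1a the ranges at the 2 ages overlapped, and in MedFb1b they did not. Yet the age test within MedFb1a also placed Fos lower at W4, by 0.52 (SE 0.13, adjusted p = 0.0049 in edgeR). Junb, a partner of Fos, differed by 1.21 (SE 0.06), Zfp36, which destabilises cytokine mRNA, by 1.62 (SE 0.09), Egr1 by 1.25 (SE 0.08) and Atf3 by 1.97 (SE 0.14). Zfp36 was at 650.3 and 528.5 CPM at W4 in MedFb1a and at 97.98 and 68.36 CPM in MedFb1b. Within MedFb1a, Junb (log2 change -0.69), Zfp36 (-1.17), Egr1 (-0.53) and Atf3 (-1.66) were also called lower at W4. The positive differences therefore mean a smaller fall in MedFb1a than in MedFb1b. At E16.5 these genes also stood higher in MedFb1a, with Fos at 3784 and 3881 CPM against 1693 and 1800 CPM.

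In the other direction, the change was more negative in MedFb1a for Irf1, Ifitm1, Ccl2 and Cxcl9, among others. Of 13 chemokines of the list, which does not hold Cxcl9, 3 were more negative (Ccl2, Cxcl10 and Cxcl13) and 2 more positive (Cxcl1 and Ccl11, by 1.10 and 0.27). Irf1 was at 687 and 686 CPM at P0 and 92.2 and 92.0 CPM at W4 in MedFb1a, and at 138.9 and 152 CPM and then 60.5 and 66.8 CPM in MedFb1b, a difference of -1.77 (SE 0.13, adjusted p = 1.69e-12). Cxcl9, which draws activated T cells, crossed over: it fell from 33.7 and 25.9 CPM to 0.971 and 0.893 CPM in MedFb1a, which is 1 UMI in each W4 library, and was 4.23 and 3.19 CPM and then 15.7 and 17.3 CPM in MedFb1b, a fitted difference of -7.16 (SE 0.61) that sets no bound. Ccl2 differed by -1.72 (SE 0.14), Ifitm1 by -0.97 (SE 0.08) and Mgp, an inhibitor of calcification, by -0.92 (SE 0.07). Of 15 interferon and MHC class I genes 4 were more negative and 0 more positive, and of 8 complement genes 4 and 0. Of 8 pericyte genes 4 were more negative and 0 more positive, and the part of pericyte RNA in these values was not tested. Over all genes tested 1.4% were more negative and 0.744% more positive.

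From E16.5 to P0, 5 of the 12 immediate early and heat shock genes differed, 1 more positive and 4 more negative, with a median of -0.22 and with Junb at -0.55 (SE 0.06) and Egr1 at -0.56 (SE 0.07). Icam1 differed by -0.74 (SE 0.11), Gm26802, a predicted gene, by -1.33 (SE 0.21) and Actb, cytoskeletal actin, by -0.24 (SE 0.04). Without E16.5 replicate 1 the calls of Icam1 (adjusted p = 0.137 in edgeR) and Actb (0.172) were lost, and without P0 replicate 2 that of Gm26802 (0.0795). Cxcl13, which attracts B cells, was at 7.34 and 13.4 CPM at E16.5 and 8.06 and 59.4 CPM at P0 in MedFb1a and at 58.7 and 30.6 CPM and then 1.41 and 3.51 CPM in MedFb1b, a difference of 5.92 (SE 0.47, adjusted p = 4.51e-10 in edgeR). Without P0 replicate 2 the difference of Cxcl13 was 4.55 (adjusted p = 0.00418 in edgeR). Mfap4, a microfibril protein, differed by 1.72 (SE 0.21), Ogn, a leucine-rich proteoglycan, by 1.30 (SE 0.19), Rsrp1 by 0.71 (SE 0.09) and Xist, the X inactivation transcript, by 0.61 (SE 0.10), the call of the last lost without E16.5 replicate 1 (adjusted p = 0.0912) or P0 replicate 2 (0.0790).

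**Figure D5:**
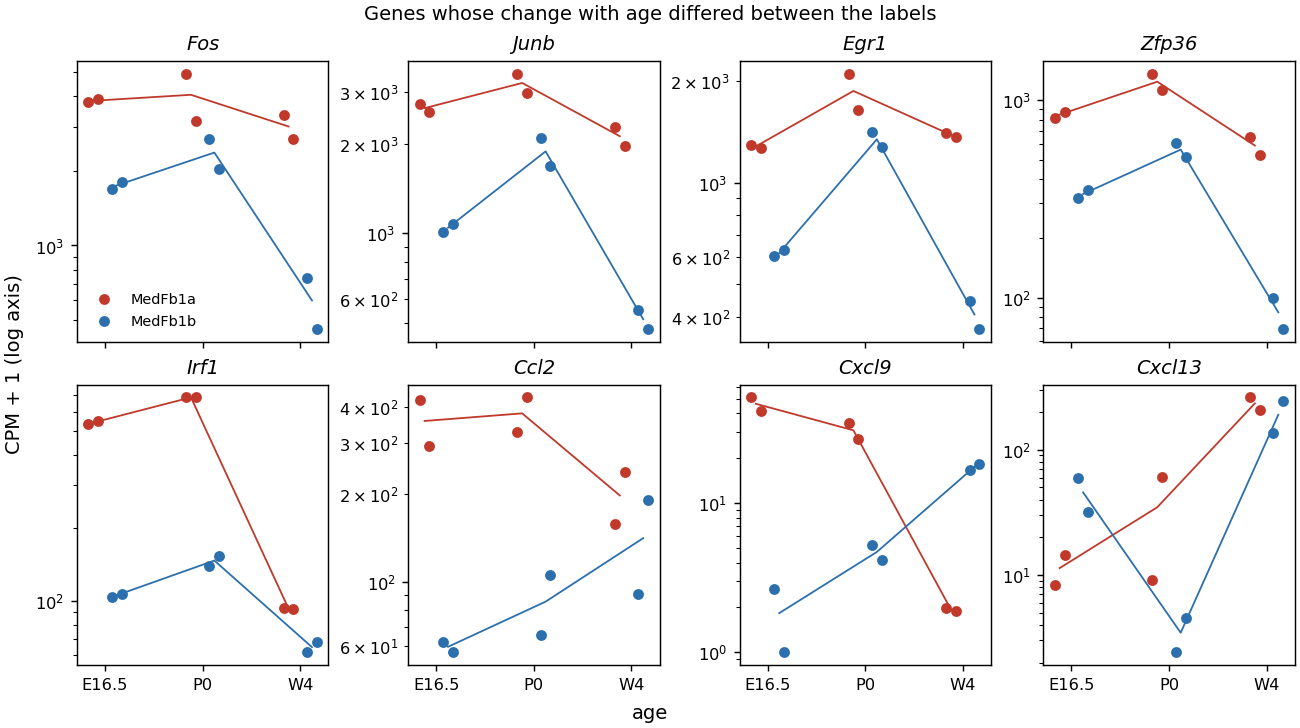
Level of 8 genes (CPM + 1, log axis) whose change with age differed between MedFb1a (red) and MedFb1b (blue), by library at E16.5, P0 and W4, with lines through the age means. Fos, Junb, Egr1 and Zfp36 separated at W4, Irf1 converged, and Cxcl9 crossed.

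In the newborn heterozygotes Tbx1 was close to the limit of detection. It was at 0.395 ± 0.684 CPM over all NETS cells of the Het libraries and 1.10 ± 0.812 CPM in WT (SD, n = 3 each). The MedFb1a cells held 0 and 4 UMIs of it. Crkl was at 26.9 ± 2.15 CPM in Het and 23.5 ± 5.14 CPM in WT, so the targeted genes did not separate the genotypes. Where the reads lie relative to the deleted parts was not known. MedFb1a made up 2.56% ± 0.919 of the NETS cells in Het and 2.59% ± 0.269 in WT (SD, n = 3 each), with epithelium left out of the total. The fitted log2 difference, Het minus WT, was 0.077 (SE 0.287, adjusted p = 0.789 in edgeR). Its sign was opposite to that of the means, and it was smaller than its SE. Of 19 labels 0 (0%) passed. Het replicate 1 held 13 MedFb1a cells and was left out of the gene test, which set 2 Het against 3 WT libraries.

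Of 4310 genes tested, 3 passed, all higher in Het (0.0696%), each with an adjusted p of 0.0347 in edgeR. H2-Aa, an MHC class II chain, was at 568 and 401 CPM in Het and 167.4, 114 and 174.7 CPM in WT (log2 change 1.69, SE 0.36). Pid1 was at 168.4 and 243 CPM against 69.7, 59.5 and 58.2 CPM (1.77, SE 0.39), and Milr1, a mast cell receptor, at 57.7 and 140 CPM against 13.9, 14.9 and 10.3 CPM (2.98, SE 0.65). The groups did not overlap for any of the 3, but every one of them lost its call under several other settings, among them the fit without WT replicate 2 (adjusted p of 0.857, 0.612 and 0.192). Sele differed by -0.37 with an adjusted p of 0.905, and its Het libraries stood at 654 and 1361 CPM against 1244 to 1409 CPM. At an unadjusted p under 0.05 there were 270 genes.

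MHC class II genes are made by antigen-presenting cells and thymic epithelium, and the sort of the genotype libraries did not remove epithelium. In MedFb1a the sum of 9 thymic epithelial genes was 1405 and 699 CPM in Het and 781, 609 and 570 CPM in WT, and that of 8 hematopoietic genes 110.6 and 36.5 CPM against 20.9, 19.8 and 10.3 CPM. Both sums were highest in Het replicate 2, which also had the most H2-Aa and the most Cd74, the class II invariant chain (1299 and 741 CPM against 413 to 446 CPM). The part of such RNA in the genotype result was not tested. Ptprc, the leukocyte antigen CD45, was at 9.62 CPM in Het replicate 2 and at 0 in the other 4 libraries.

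In bulk RNA of sorted stroma, gp38+CD26- cells at P0 had more Tenm4 and Col15a1 than gp38+CD26+ cells. Of 13052 genes 410 were higher (3.14%) and 499 lower (3.82%) in edgeR, 6.96% together. Tenm4 ranged from 147 to 222 CPM (median 193) in gp38+CD26- and from 35.2 to 71.7 CPM (median 56.0) in gp38+CD26+, with no overlap (log2 difference 1.70, SE 0.27, adjusted p = 0.000603). Col15a1 ranged from 961 to 1609 CPM against 95.8 to 839 CPM, again with no overlap (1.13, SE 0.31, adjusted p = 0.0360). Sele ranged from 53.4 to 162 CPM (median 129) against 22.2 to 258 CPM (median 76.5), overlapping widely (0.14, SE 0.47, adjusted p = 0.933). The study places medullary fibroblasts together with CapFb1 cells in this sort from cells of 4 weeks, not of P0. In bulk RNA fewer cells of a type and less RNA per cell cannot be told apart. Whether the 2 sorts at P0 came from the same mice was not checked. The test treated their libraries as separate, which can hide differences if they were paired.

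Of the 10 genes with the highest ratio of MedFb1a to MedFb1b, 0 passed in either direction, near the 6.96% of all genes, with a median log2 difference of -0.25 beside 0.05 over all genes. Of the 10 genes lower in MedFb1a, 5 were higher in gp38+CD26- cells, among them P2ry14, Gdf10, Col26a1 and Rem1, and 0 lower, with P2ry14 at a log2 difference of 1.73 (SE 0.19). Of the 9 genes other than Sele that were highest in MedFb1a among labels, 0 passed.

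Between P0 and 4 weeks in bulk gp38+CD26- cells, 1481 genes rose (11.3%) and 1221 fell (9.35%), 20.7% together. Sele fell from a median of 129 CPM to one of 9.41 CPM, with all 6 libraries at 4 weeks (2.31 to 16.4 CPM) below all 6 at P0 (log2 change -3.47, SE 0.52, adjusted p = 7.57e-05). Tenm4 fell by 1.11 (SE 0.27, adjusted p = 0.00538), and Col15a1 changed by 0.58 (SE 0.31, adjusted p = 0.221). Of the 10 genes higher in MedFb1a than MedFb1b 3 fell and 0 rose: Irf1 from a median of 133 to 27.4 CPM, Nfkbiz from 194 to 12.9 CPM and Cxcl1 from 84.5 to 12.9 CPM. Of the 10 lower genes 1, Hsd11b1, rose by 4.14 (SE 0.25) and 5 fell. Of the 9 highest-of-labels genes 3 rose, the chaperones Hspa1a, Hspa1b and Hspe1, with Hspa1a at 80.6 to 682 CPM at 4 weeks against 18.6 to 190 CPM at P0. By the study's methods the bead depletion of adult thymus applies here too, so age and handling cannot be told apart.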

How the data were processed

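The deposited values were raw counts: UMIs per gene and cell from Cell Ranger 3.1.0 for the single-cell libraries, and reads per gene for the bulk libraries, for which the submitters' notes name STAR 2.5.3a and HTSeq. Cell labels were the authors' deposited annotation; the study's methods kept cells that DoubletFinder called singlets, and no further cell was removed. The age libraries held 28583048 to 93040640 UMIs, the genotype libraries 4978011 to 31418527, and the bulk libraries 8454267 to 15560221 gene counts. Bulk entries that name no gene (9.25 to 16.6% of reads) were left out, and 37607 of 39179 bulk identifiers had a symbol.

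UMIs were summed per label and library (at least 20 cells) and tested with the edgeR 4.0.16 quasi-likelihood test in R 4.3.3, with TMM scaling, filterByExpr and Benjamini-Hochberg adjustment over all genes (threshold 0.05). The fit for age gave each age its own term, and its first step compared E16.5 with the mean of E12.5 and E13.5. The comparison with MedFb1b had a library block, and shares were tested on cell counts of the 19 labels. Ratios to MedFb1b used a prior of 1 CPM. DESeq2 1.42.0, RLE size factors, no filter on low counts, a replicate block, cycling cells left out, leaving out each library and, for the bulk libraries, the prefix of the sample title (DFCK or TXCK) as a covariate were among the alternatives. Summing the E16.5 libraries and keeping all 6 genotype libraries (at least 5 cells) were added after the data had been seen. Each fit was first tested on simulated data. Means are ± SD over libraries. The SE of an edgeR log2 change was its absolute size divided by the square root of the F statistic of its test. Where a library was at 0, this SE does not bound the change.

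Genes were named by fixed rules: the 3 markers; the 10 largest median ratios to MedFb1b per direction among genes of at least 50 CPM with 1 sign in every library; the 10 largest margins over the second label (at least 20 CPM); per age step and for genotype the 8 largest changes per direction among called genes of at least 50 CPM without overlap; the 5 smallest p per direction for the difference between labels; and, from 31 gene lists, the counts with examples. Other members of those lists given with values were chosen after their values were seen. The members and lists were chosen with earlier results of these data known. The study states that 2 thymi were used per time point at E16.5, P0 and W4, but not that each library holds 1 of them, so p-values may measure technical spread. Replicate numbers did not pair the single-cell libraries. Pairing of the bulk libraries was not checked. Human data and epithelium were not analysed here, and the other labels served only for comparison with MedFb1a. RefSeq (GRCm38.p6) gave promoter windows. Results on a few genes that these rules name are not reported here.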

Additional observations from a re-analysis of the deposited data

Results flagged for a closer look

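In the bulk libraries, 51 groups of 6 libraries for 17 genes were looked at for a library far from the others, and 5 were found, where chance gives about 1 in 20. In gp38+CD26- cells at 4 weeks the highest library held 140.3 CPM of Gdf10, against 58.7 to 84.4 CPM in the others, and the highest held 18.4 CPM of Hspe1, against 12.3 to 14.4 CPM. The lowest library of the same group held 80.6 CPM of Hspa1a, against 547 to 682 CPM, and the lowest held 5.03 CPM of Hspa1b, against 15.8 to 19.6 CPM. In gp38+CD26- cells at P0 the highest library held 345 CPM of Sfrp1, against 282 to 299 CPM.

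The change with age differed between MedFb1a and MedFb1b for 43 genes from E16.5 to P0 and for 262 genes from P0 to W4, by the edgeR test of the difference itself. Genes with the smallest p in the first step had log2 differences of 5.92 (Cxcl13), 1.72 (Mfap4), 0.71 (Rsrp1), 1.30 (Ogn) and 0.61 (Xist), and of -0.55 (Junb), -0.56 (Egr1), -0.74 (Icam1), -1.33 (Gm26802) and -0.24 (Actb). In the second step they were 1.54 (Fos), 1.21 (Junb), 1.62 (Zfp36) and 1.25 (Egr1), and -1.77 (Irf1), -0.92 (Mgp), -0.97 (Ifitm1), -1.72 (Ccl2) and -7.16 (Cxcl9). Junb and Egr1 were called in both steps with opposite signs.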

How the results depend on the processing

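Of 82 named results and their 1049 alternative values, 1016 kept direction and side of the threshold, 32 lost the call and 1 changed sign, Sele by genotype (0.037 on the log2 scale without Het replicate 2, adjusted p = 0.975 in edgeR, and -1.001 without Het replicate 3). DESeq2 called 5019 genes over ages, 3064, 585 and 2107 in the 3 age steps, 1 by genotype and 1379 between the bulk sorts. With the E16.5 libraries summed as 1 sample, the step to P0 gave 658 genes and its difference from MedFb1b 0.176% of genes, and with no filter on low counts that difference gave 0.539%, in place of 0.352%. Leaving out 1 library gave 6548 to 8224 genes over ages, 3795 to 5573 into E16.5, 528 to 1870 from E16.5 to P0 (528 and 556 without E16.5 replicate 1 and 2), 2658 to 3647 from P0 to W4, 0.104 to 1.09% and 1.33 to 2.03% of genes for the 2 differences from MedFb1b (0.104 and 0.167% without the E16.5 replicates, 1.08 and 1.09% without the W4 replicates, 1.33% without P0 replicate 2), and 0 to 11 by genotype (11 without Het replicate 3 or WT replicate 1, 0 without WT replicate 2 or 3). The share of MedFb1a by genotype changed sign without Het replicate 3 (-0.103, adjusted p = 0.878 in edgeR) and was 0.254 without Het replicate 1, and its adjusted p was 0.641 to 0.999 over the alternatives. The adjusted p of the share over ages was 8.63e-06 to 0.0178. Thinning to 2000 UMIs put the share of MedFb1a cells with a Tenm4 UMI at 13.3% in place of 48.5%. The replicate block gave 7388, 4732, 1636 and 3623 genes for age and 0 by genotype, and same-numbered libraries correlated at -0.004, -0.027 and 0.007 in the age series, so the numbers named samples only. The cause of these changes was not tested. The genotype test rests on 43 to 75 MedFb1a cells a library.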
